A study of Mus musculus with 9 samples.

Results

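Dlx1, Dlx2, Dlx5, Dlx6, Sp9, Sox11, Dcx, Igfbpl1 and Cd24a are genes of the ventral forebrain lineage and of young neurons, and their levels were followed in RNA sequencing libraries of mouse brain. The 9 genes were picked by name with measured values of these libraries already known, above all their levels in treated against untreated aged mice. All 9 were found among the 22192 genes of the deposited table. Brains came from KM mice, an outbred stock, labelled male. Physiological saline had been given by mouth to a young group, aged 5 months, and to an aged group of 18 months. A further aged group, also of 18 months, had been gavaged with GRP-E1F2, which is a polysaccharide prepared from ginseng root, at 200 mg/kg. Saline and GRP-E1F2 were given every 2 days for 4 weeks. Each of the 3 groups held 3 libraries, called parallel samples in the labels. Whether each library is an animal of its own is not stated, and the p-values thus reflect only how far libraries spread, which may be technical. Values are TPM, a transcript's share of a library corrected for transcript length.

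Dlx genes encode homeodomain transcription factors that specify GABAergic neurons, the inhibitory neurons of the forebrain, in the ganglionic eminences of the embryo. In the adult rodent brain they stay active in the subventricular zone, from which young neurons migrate to the olfactory bulb and become granule and periglomerular interneurons. A second site of adult neurogenesis, the dentate gyrus of the hippocampus, makes glutamatergic granule neurons. Sp9 is a zinc finger factor of the same ventral lineage and also of striatal projection neurons, Sox11 is a factor of young neurons of many regions, and Dcx, doublecortin, is a microtubule-associated protein of migrating neurons. Igfbpl1 encodes an insulin-like growth factor binding protein-like protein found in young neurons, and Cd24a a surface glycoprotein of young neurons that ependymal and blood cells also carry. Dlx genes are also kept in mature interneurons, so that their RNA alone does not mark newborn cells. In bulk RNA, fewer cells of a type and less RNA per cell cannot be told apart.

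The Dlx genes lie in convergent pairs. In the GENCODE annotation of GRCm38 (mm10), Dlx1 (NCBI gene 13390, chromosome 2, 71528113 to 71533981, plus strand) faces Dlx2 (13392, chromosome 2, 71543408 to 71546754, minus strand) across 9426 bp. Dlx6 (13396, chromosome 6, 6863334 to 6868568, plus strand) faces Dlx5 (13395, chromosome 6, 6877805 to 6882085, minus strand) across 9236 bp. Sp9 (381373, chromosome 2, 73271925 to 73284706, plus strand) lies on the chromosome of Dlx1 and Dlx2, 1725170 bp from the latter. The others are scattered, with Igfbpl1 on chromosome 4, Cd24a on chromosome 10, Sox11 on chromosome 12 and Dcx on chromosome X. The antisense genes Dlx1as and Dlx6os1 span 100% of the Dlx1 and Dlx6 gene bodies in this annotation and were not analysed here. No source used here gives the handling of strand in counting, so sense and antisense reads of Dlx1 and Dlx6 cannot be told apart.

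RefSeq promoter windows (GRCm38.p6, 250 bases before to 50 after the annotated start) were matched for 5 of the 9 genes, Dlx1, Dlx2, Sp9, Sox11 and Dcx. The windows of Dlx1, Dlx2 and Sp9, whose levels were highest together in the treated libraries, are shown beside that of Dcx, 5′ to 3′ on the gene's strand. Capitals mark matches on either strand to GGGCGG, a core bound by Sp factors, to TAATTA, a core bound by homeodomain factors, to ACAAAG, a SOX core, or to CATCTG, an E-box; no marked matches overlap.
Dlx1, chr2:71529195-71529494, plus strand: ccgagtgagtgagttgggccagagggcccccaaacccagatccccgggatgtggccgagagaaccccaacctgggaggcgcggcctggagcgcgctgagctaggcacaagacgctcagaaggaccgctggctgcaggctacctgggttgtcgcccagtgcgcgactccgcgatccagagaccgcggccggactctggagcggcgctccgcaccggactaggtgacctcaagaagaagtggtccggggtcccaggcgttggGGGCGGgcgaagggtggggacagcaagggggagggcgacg
Dlx2, chr2:71546705-71547004, minus strand: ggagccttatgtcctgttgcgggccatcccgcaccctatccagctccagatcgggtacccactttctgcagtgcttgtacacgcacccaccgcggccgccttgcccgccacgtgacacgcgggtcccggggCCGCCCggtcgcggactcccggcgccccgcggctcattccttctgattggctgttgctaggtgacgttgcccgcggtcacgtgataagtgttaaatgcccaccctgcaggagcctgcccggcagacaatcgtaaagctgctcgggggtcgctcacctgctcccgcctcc
Sp9, chr2:73271676-73271975, plus strand: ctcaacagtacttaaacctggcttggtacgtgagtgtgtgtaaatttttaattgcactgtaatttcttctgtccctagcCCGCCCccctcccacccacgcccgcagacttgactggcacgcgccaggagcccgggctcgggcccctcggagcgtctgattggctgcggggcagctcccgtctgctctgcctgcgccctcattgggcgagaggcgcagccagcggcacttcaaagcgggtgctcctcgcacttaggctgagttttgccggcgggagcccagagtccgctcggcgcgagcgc
Dcx, chrX:143933170-143933469, minus strand: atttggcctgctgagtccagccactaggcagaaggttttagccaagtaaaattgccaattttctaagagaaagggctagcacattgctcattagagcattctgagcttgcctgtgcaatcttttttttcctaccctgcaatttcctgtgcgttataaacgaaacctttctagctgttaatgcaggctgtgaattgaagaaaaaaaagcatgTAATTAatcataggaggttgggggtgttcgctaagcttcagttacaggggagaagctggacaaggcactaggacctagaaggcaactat
GGGCGG was present in the windows of Dlx1, Dlx2, Sp9 and Sox11 and in 35.7% of all 32851 RefSeq windows. TAATTA was present in both windows listed for Dcx and in 5.29% of all windows. ACAAAG stood in the second Dcx window, starting at 143933075 and not shown, and in 18.7% of all windows, and CATCTG in none of the 6 windows and in 17.2% of all. G and C bases made up 69.3%, 66.3%, 63.7% and 58.7% of the windows of Dlx1, Dlx2, Sp9 and Sox11, against a median of 52.7% over all windows and 43.0% in the Dcx window shown. A match describes letters in the window and no binding.

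Library sums lay between 999667 and 999929 TPM and 16715 to 16962 genes were above 0. TPM holds no counts, so depth is unknown. Of the genes with a difference of 1.3-fold or more between 2 libraries of a group, the remaining library fell in the interval between them at 92.8% for young library 3, 93.5% for aged library 2 and 94.3% for treated library 3. For the other 6 libraries this share was 15.9% to 29.8%. These 3 libraries may not be separate samples, and differences are therefore also given without them, as 2 libraries per group. The highest level of 4 Y-linked genes in any library was 0.174 TPM, which goes against the labelled sex. The labels' extraction protocol names retina as the tissue, while the 5 markers of brain neurons and glia checked were above 0 in all libraries and the 5 retinal markers summed to 2.65 to 7.43 TPM per library. Of 13301 genes tested, 729 rose and 1488 fell from young to aged saline libraries, and 994 rose and 1777 fell with GRP-E1F2 against aged saline. After median-of-ratios scaling these counts were 925 and 1025 with age, and after quantile normalisation 1466 and 1470 with GRP-E1F2.

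Dlx1 was highest in the treated group. It stood at 10.1, 5.00 and 7.70 TPM in young libraries 1 to 3, at 14.3, 13.7 and 13.7 TPM in aged saline libraries and at 36.0, 46.3 and 40.6 TPM in aged GRP-E1F2 libraries. None of the 3 groups overlapped. The mean was 2.95-fold higher with GRP-E1F2 than with saline at 18 months, a difference of 1.49 (SE 0.19) on the log2(TPM + 1) scale, which understates changes of low genes. With 2 libraries per group this difference was 1.48 (SE 0.28). Because the 9 genes were chosen on such values, no p is given for treated libraries.

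Dlx2, the partner of Dlx1, was 2.64, 1.28 and 2.35 TPM in young, 3.91, 4.10 and 4.53 TPM in aged saline and 8.99, 15.1 and 12.0 TPM in GRP-E1F2 libraries. It was lower than Dlx1 in every library, and its groups did not overlap. The ratio of Dlx2 to Dlx1 ranged from 0.250 to 0.330 over all 9 libraries. Dlx2 thus differed between GRP-E1F2 and aged saline by 1.31 (SE 0.20), with means of 12.0 ± 3.07 and 4.18 ± 0.317 TPM (SD, n = 3).

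The second pair differed more between libraries of a group. Dlx5 was 5.54, 3.00 and 4.78 TPM in young, 9.20, 9.55 and 12.3 TPM in aged saline and 10.2, 39.2 and 25.3 TPM in GRP-E1F2 libraries. Treated library 1 stood within the range of aged saline, while treated libraries 2 and 3 stood above it. Dlx6 was 5.41, 1.15 and 3.09 TPM in young, 9.66, 10.3 and 9.38 TPM in aged saline and 11.2, 18.5 and 12.5 TPM in GRP-E1F2 libraries. Its treated libraries were all above the aged saline ones, by a small gap in library 1. The differences between GRP-E1F2 and aged saline were 1.02 (SE 0.40) for Dlx5 and 0.45 (SE 0.34) for Dlx6. Leaving out treated library 2 lowered them to 0.61 and 0.25, and leaving out treated library 1 raised them to 1.53 and 0.59. Dlx6 over Dlx5 was 1.10 in treated library 1 but 0.471 and 0.495 in treated libraries 2 and 3, and 0.761 to 1.08 in aged saline libraries, so the pair did not move in a fixed ratio.

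Sp9 was 3.89, 1.43 and 2.97 TPM in young, 4.46, 4.46 and 4.63 TPM in aged saline and 9.51, 16.8 and 14.8 TPM in GRP-E1F2 libraries. Its aged saline libraries lay close together, and all treated libraries were above them. The means of 4.52 ± 0.0972 and 13.7 ± 3.78 TPM differed 3.03-fold (1.38 on the log2 scale, SE 0.26). Sp9 stayed at 0.264 to 0.386 of the Dlx1 level in all libraries, although it lies outside the Dlx1 and Dlx2 pair. Sox11 was low and varied more: 2.01, 1.29 and 1.79 TPM in young, 1.01, 1.96 and 3.04 TPM in aged saline and 2.73, 3.98 and 3.24 TPM in GRP-E1F2 libraries. Aged saline library 3 stood above treated library 1, so the groups overlapped. The difference between GRP-E1F2 and aged saline was 0.57 (SE 0.23), and 0.31 without aged library 1.

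**Figure D1:**
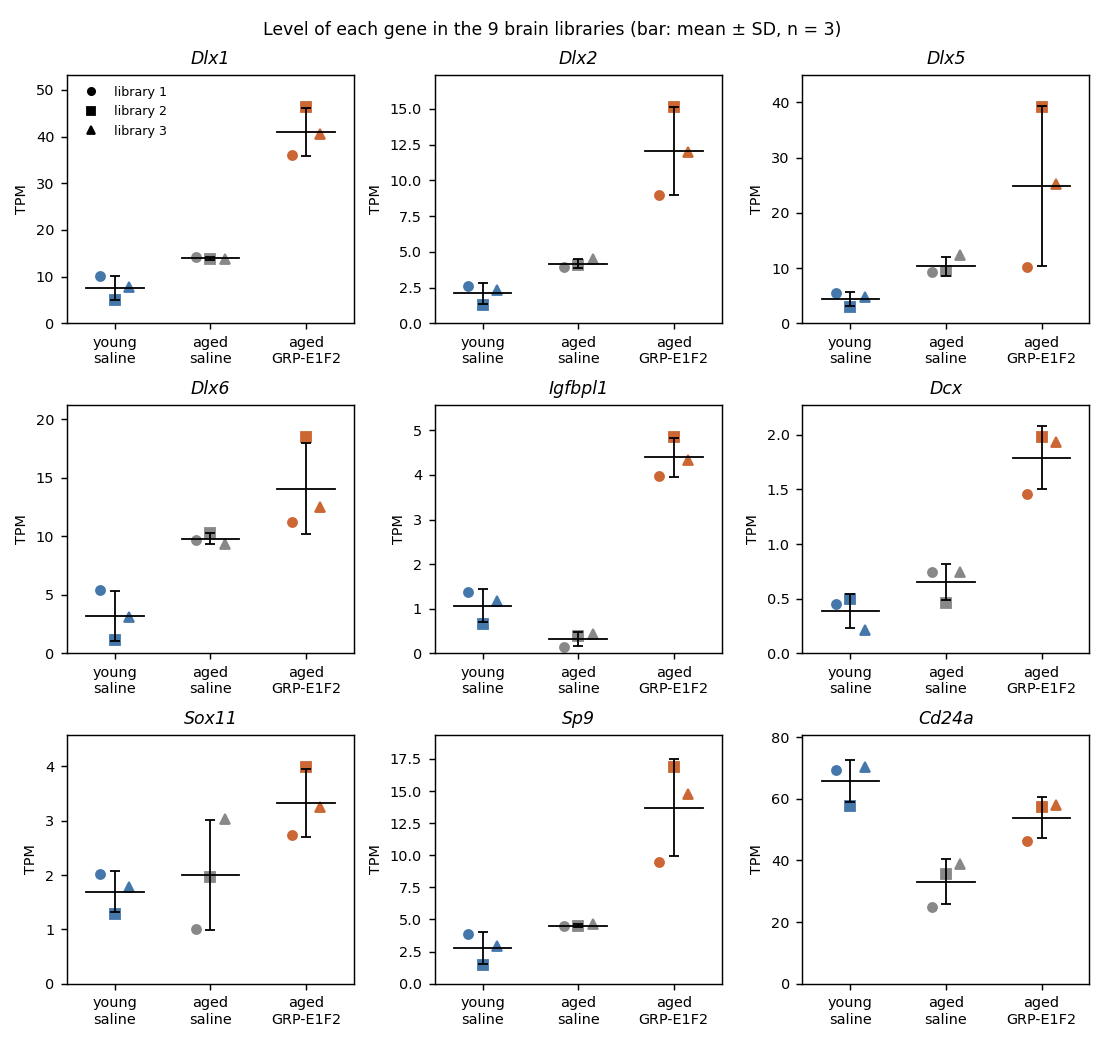
TPM of each gene (vertical axis, from 0) in the 9 libraries, grouped by young saline, aged saline and aged GRP-E1F2; symbols mark libraries 1 to 3, and the bars give the mean and SD (n = 3). Dlx1, Dlx2 and Sp9 step up over the 3 groups, Igfbpl1 is lowest in aged saline, and Cd24a is highest in young libraries at 57.7 to 70.2 TPM.

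Of the 9 genes, Igfbpl1 had the widest ratio between treated and untreated aged libraries. It was 1.38, 0.664 and 1.16 TPM in young, 0.140, 0.389 and 0.439 TPM in aged saline and 3.98, 4.85 and 4.35 TPM in GRP-E1F2 libraries. The aged saline libraries were lowest and the treated highest, with no overlap between any pair of groups. The treated mean was 13.6-fold the aged saline mean, from low values, and the difference was 2.03 (SE 0.15), or 3.49 with a pseudocount of 0.1 TPM and 0.82 with one of 5 TPM.

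Dcx was near the bottom of the measured range, at 0.449, 0.500 and 0.215 TPM in young, 0.744, 0.459 and 0.748 TPM in aged saline and 1.46, 1.98 and 1.94 TPM in GRP-E1F2 libraries. The 3 treated libraries were above all others, while young and aged saline overlapped. With a mean of 0.943 TPM over the 9 libraries Dcx missed the filter of 1 TPM that genes had to reach to be tested, which the other 8 genes passed. In a fit without that filter it differed by 0.76 (SE 0.12) between GRP-E1F2 and aged saline, and by 0.63 (SE 0.12) with 2 libraries per group.

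Cd24a took another course. It was 69.4, 57.7 and 70.2 TPM in young, 25.0, 35.4 and 38.9 TPM in aged saline and 46.3, 57.4 and 58.0 TPM in GRP-E1F2 libraries. Aged saline libraries were lowest, treated libraries stood between, and the young and treated groups touched, since young library 2 was below treated library 3. GRP-E1F2 and aged saline libraries differed by 0.70 (SE 0.16).

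Counted over the 9 genes, the treated libraries were above all aged saline libraries in 7, Dlx5 and Sox11 being the exceptions, where 14.9% of all tested genes did so; the genes were chosen on this contrast, and nothing is read from the count. The differences had a median of 1.02, beside -0.02 over all genes tested. Treated library 1 was the lowest of its group in 9 of 9 genes, and treated library 2 the highest in 8. Young library 2 was the lowest of its group in 8. Against young saline, with which the contrast shares the treated libraries, all 9 genes but Cd24a had treated libraries above every young one, where 22.9% of all tested genes did so. These differences ran from 0.68 (SE 0.23) for Sox11 to 2.33 (SE 0.19) for Dlx1, and Cd24a differed by -0.28 (SE 0.16).

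By mean level, the order in young libraries was Cd24a at 65.8 ± 6.97, Dlx1 at 7.59 ± 2.53, Dlx5 at 4.44 ± 1.30, Dlx6 at 3.22 ± 2.13, Sp9 at 2.76 ± 1.24, Dlx2 at 2.09 ± 0.716, Sox11 at 1.70 ± 0.372, Igfbpl1 at 1.07 ± 0.367 and Dcx at 0.388 ± 0.152 TPM (SD, n = 3). From Dlx5 to Sox11, neighbours in this order differed by less than the larger of their SDs. In aged saline libraries Cd24a at 33.1 ± 7.26 and Dlx1 at 13.9 ± 0.332 TPM led, Dlx5 at 10.4 ± 1.71 and Dlx6 at 9.79 ± 0.484 TPM differed by less than the SD of Dlx5, and Igfbpl1 at 0.323 ± 0.160 TPM stood below Dcx at 0.651 ± 0.166 TPM. In treated libraries Cd24a at 53.9 ± 6.57 and Dlx1 at 41.0 ± 5.16 TPM still led, Dlx5 at 24.9 ± 14.5 and Dlx6 at 14.1 ± 3.85 TPM followed, and Igfbpl1 at 4.39 ± 0.434 TPM stood above Sox11 at 3.32 ± 0.628 TPM. Neighbours from Dlx5 down to Dlx2 differed by less than the larger of their SDs there.

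The comparison of aged with young saline asked what differed with age. It shares the aged saline libraries with the contrast on which the genes were chosen, so its tests are not independent of that choice. Of the 8 genes tested, Dlx1, Dlx2 and Dlx6 rose and Igfbpl1 and Cd24a fell by limma at an adjusted p under 0.05, beside 5.48% of all tested genes that rose and 11.2% that fell. The groups did not overlap in 5 of the 9 genes that were higher and 2 that were lower with age, beside 14.7% and 26.8% of all tested genes. Dlx6 rose most, from 3.22 ± 2.13 to 9.79 ± 0.484 TPM (SD, n = 3; log2 difference 1.49, SE 0.34, limma adjusted p = 0.0221). Dlx1 rose by 0.84 (SE 0.19, limma adjusted p = 0.0222) and Dlx2 by 0.77 (SE 0.20, adjusted p = 0.0346). Cd24a fell by 0.99 (SE 0.16, adjusted p = 0.00806) and Igfbpl1 by 0.64 (SE 0.15, adjusted p = 0.0249). Igfbpl1 reached the filter of 1 TPM through the treated libraries, since its young and aged saline levels together averaged less, and its age test rests on that. Dlx5 and Sp9 did not overlap between the groups but missed the threshold, with differences of 1.08 (SE 0.40, adjusted p = 0.0895) and 0.61 (SE 0.26, adjusted p = 0.128). Sox11 differed by 0.11 (SE 0.23, adjusted p = 0.782), by -0.14 without aged library 3 and by -0.01 without young library 2. Dcx, in the fit without the filter, differed by 0.25 (SE 0.12, adjusted p = 0.178).

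None of these age calls held with 2 libraries per group. Only 3 of all 13301 tested genes were called with age in that fit, so the loss is not particular to these genes. The limma adjusted p there was 0.384 for Dlx1, 0.408 for Dlx2, 0.385 for Dlx6, 0.425 for Igfbpl1 and 0.350 for Cd24a. Cd24a was called in every fit that left out 1 library. Dlx1 missed the threshold without young library 3 (0.0745), aged library 1 (0.0570) or aged library 2 (0.0816), and Dlx6 without the same libraries (0.0750, 0.0540 and 0.0857). Igfbpl1 missed it without these (0.0981, 0.0636 and 0.0783) and without young library 1 (0.0517). Dlx2 missed it without young library 2 (0.102), young library 3 (0.0855), aged library 1 (0.0679), aged library 2 (0.106), aged library 3 (0.0681) or treated library 3 (0.0609). Dlx5 was called without treated library 1 (0.0157) or treated library 2 (0.0414).

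**Figure D2:**
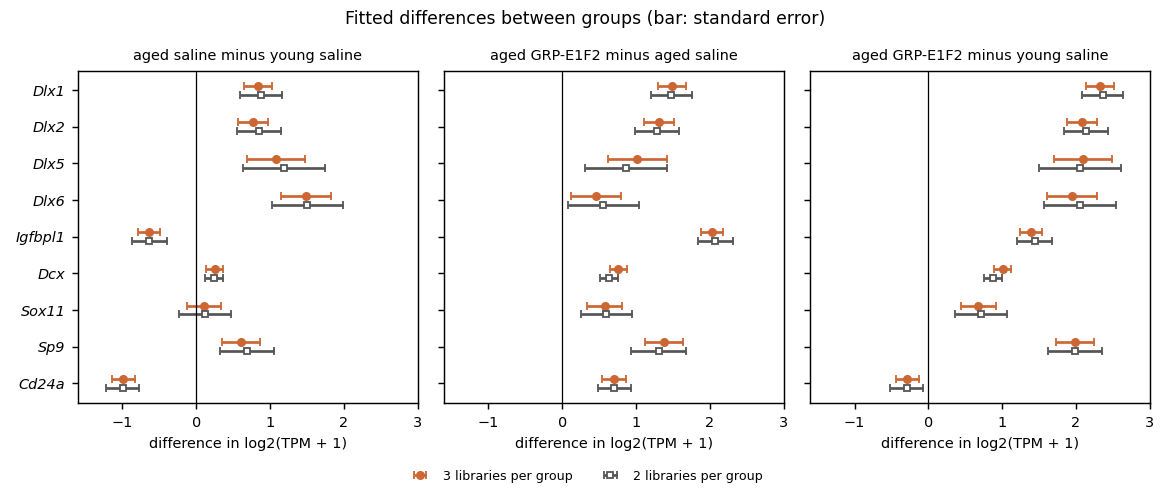
Fitted difference in log2(TPM + 1) (horizontal axis) of each gene in the 3 comparisons, with 3 libraries per group (filled) and 2 (open); bars are standard errors. All 9 genes lie right of 0 for GRP-E1F2 against aged saline, while Igfbpl1 and Cd24a lie left of 0 for aged against young saline, at -0.64 and -0.99.

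Some regional markers also differed between the groups. The 9 cerebellar markers all fell with GRP-E1F2 against aged saline, and their summed level was 2980 to 4344 TPM in young, 1737 to 2149 TPM in aged saline and 38.2 to 45.0 TPM in treated libraries. Pcp2 of Purkinje cells, for example, went from 807 ± 163 to 5.99 ± 2.97 TPM and Cbln3 of granule cells from 276 ± 2.13 to 0.190 ± 0.132 TPM. In treated libraries 1 and 3 Barhl1 was listed at 0, and no other marker of the list was at 0 in any library. Since TPM are shares of a library, tissue missing from a sample raises the share of what remains. The part of cerebellar tissue in the differences of the Dlx and newborn neuron genes was not tested.

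Markers of olfactory bulb interneurons, the cells that Dlx-expressing young neurons become, rose at 3 of 7 with GRP-E1F2, with a median difference of 0.71. None of the 7 was called lower. Among the 3, Scgn reached the filter of 1 TPM only through the treated libraries, and none of the 3 was called with 2 libraries per group. The summed level of the 7 markers was 439 to 482 TPM in young, 330 to 412 TPM in aged saline and 413, 970 and 694 TPM in treated libraries 1 to 3. Gng4, a G protein subunit gene abundant in granule cells, was 95.8 to 108 TPM in aged saline and 261, 585 and 419 TPM in treated libraries (limma adjusted p = 0.0015, or 0.0760 with 2 libraries per group). Gng4 alone made up most of the treated sums. Calb2 alone of the 7 went the other way, from 159 ± 38.7 TPM in aged saline to 90.4 ± 42.3 TPM in treated libraries. It averaged 293 TPM in young libraries and is also on the list of glutamatergic newborn neuron genes. It differed by -0.90 (SE 0.33, limma adjusted p = 0.0831), and by -1.79 against young saline (adjusted p = 0.00209). Markers of bulb projection neurons summed to 38.0 to 40.0 TPM in aged saline and 22.1, 76.2 and 51.5 TPM in treated libraries, with 1 of 5 tested rising and 2 falling. Olfactory nerve markers had a mean log2 level of 1.07 to 1.23 in young, 2.75 to 3.18 in aged saline and 1.94 to 2.99 in treated libraries, 2 of the 3 tested rising with age and none with GRP-E1F2. In treated library 1 the mean log2 level was 4.35 for the interneuron markers and 1.71 for the projection neuron markers, against 4.15 to 4.53 and 2.44 to 2.50 in aged saline. The interneuron list was mixed in that library. Gng4, Tshz1 and Scgn, at 4.12 TPM against 0.690 to 0.877 TPM, were above every aged saline library. Th and Calb2, the latter at 47.7 TPM, were below every one, and Synpr and Trh lay within their range. The 3 most abundant projection neuron markers differed from each other. Barhl2 was 0.250 to 1.33 TPM in all treated and 10.1 to 14.1 TPM in aged saline libraries. In treated library 1 Reln was 4.48 TPM against 8.45 to 9.07 TPM in aged saline, and Doc2g 12.2 TPM against 9.78 to 11.2 TPM. In that same library Dlx1 at 36.0, Dlx2 at 8.99, Sp9 at 9.51, Igfbpl1 at 3.98 and Dcx at 1.46 TPM were above every aged saline library, while Dlx5 at 10.2 TPM was not. Mean levels of Calb2, Barhl2 and Reln were highest in young and lowest in treated libraries, the order of the cerebellar markers. The part of bulb or cerebellar tissue in these differences was not tested.

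Striatal projection neuron markers, of which none of 11 passed in this comparison or with age, ran from a sum of 336 TPM in young library 2 to 1184 TPM in young library 1 and 2687 TPM in treated library 2. Drd1, a dopamine receptor of these neurons, was 10.2, 0.802 and 5.63 TPM in young libraries. Young library 2, the lowest in Drd1, was also the lowest in Dlx1, Dlx2, Dlx5, Dlx6 and Sp9, and the striatal markers differed by a median of 1.37 with age. With age 8 of 9 cerebellar markers fell, with a median difference of -0.88, beside 11.2% of all tested genes. Of 6 neocortical markers 2 rose with age, with a median of 1.08, beside 5.48% of all tested genes. The part of striatal, cerebellar or neocortical tissue in the age differences of the Dlx genes was not tested. Among treated libraries neocortical markers ran opposite to the striatal ones, with a mean log2 level of 5.67 in library 1 and 4.50 in library 2. None of the 6 passed with GRP-E1F2.

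Cd24a has other sources. Ependymal markers summed to 66.9 to 74.2 TPM in aged saline, 70.3 to 73.4 TPM in young and 53.0 to 62.1 TPM in treated libraries, with 1 of 5 tested, Rarres2, falling with GRP-E1F2. Rarres2 made up most of these sums, and on the mean log2 level of the list treated library 1, at 2.64, lay within the aged saline range of 2.47 to 2.77. Choroid plexus markers summed to 2244 to 2302 TPM in young, 164 to 1252 TPM in aged saline and 21.9 to 962 TPM in treated libraries, and 4 of 7 fell with age beside Cd24a. Neutrophil and red cell markers summed to 1028 to 2834 TPM over all libraries. The neutrophil genes S100a8, S100a9, Ngp and Camp, 4 of the 7 tested, rose with age, when Cd24a fell, and these 4 fell with GRP-E1F2. Ngp and Camp were at most 0.845 TPM in every young and treated library. They reached the filter of 1 TPM only through the aged saline libraries, and their calls rest on that. Pituitary hormone markers summed to 874 and 441 TPM in treated libraries 2 and 3, 1.60 TPM in treated library 1 and at most 22.5 TPM elsewhere. None of the 5 tested passed with GRP-E1F2. Of 8 oligodendrocyte precursor markers 1, Gpr17, rose with GRP-E1F2 and none fell. The part of these cells in the Cd24a differences was not tested. With 2 libraries per group no marker of any list was called with age, where almost no gene was called at all. With GRP-E1F2 none rose in that fit while 8 cerebellar, 2 neutrophil or red cell, 1 choroid plexus and 1 bulb projection neuron marker fell.

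**Figure D3:**
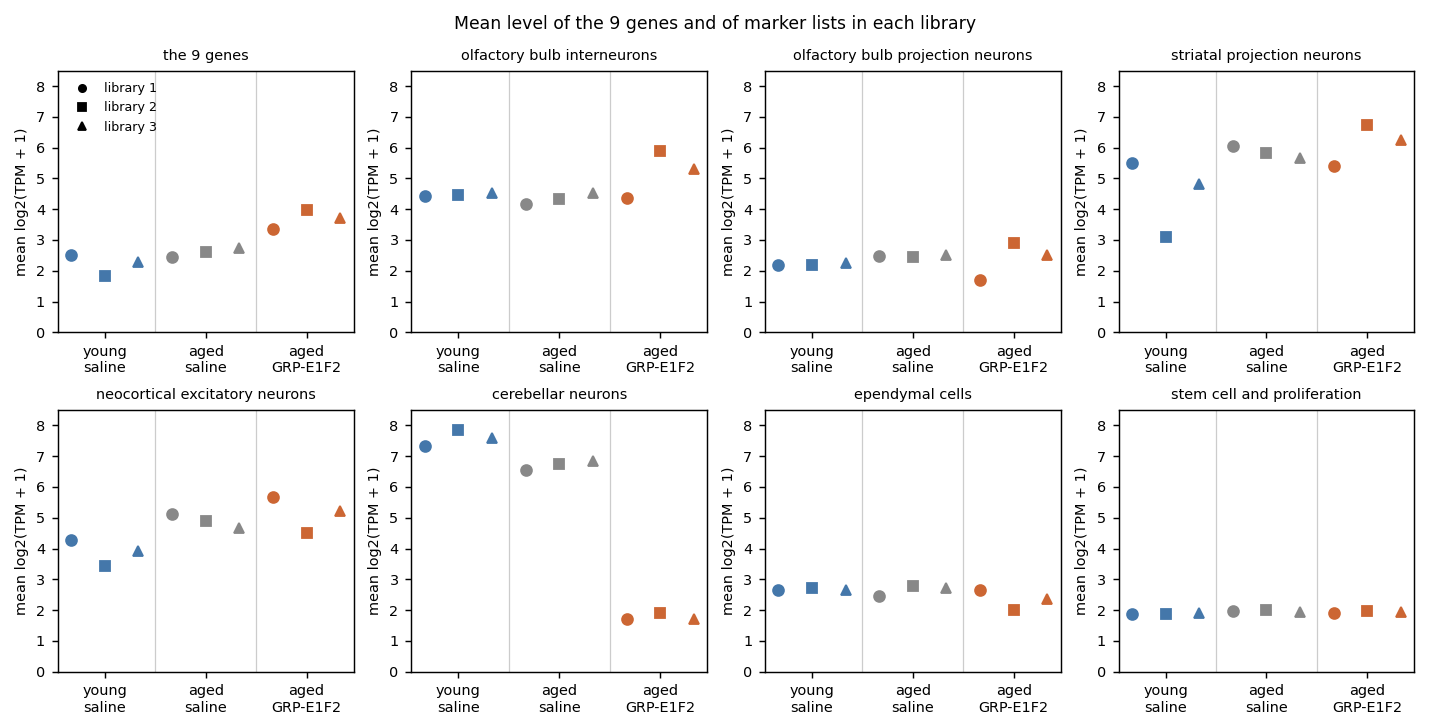
Mean log2(TPM + 1) (vertical axis) of the 9 genes and of 7 marker or gene lists in each library, coloured by group, with symbols for libraries 1 to 3. The 9 genes are highest in the treated libraries, cerebellar markers fall to 1.71 to 1.89 there, and stem cell and proliferation genes stay between 1.87 and 1.99 in all libraries.

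Other genes of the pathways were followed in lists that leave out the 9 genes, beside 7.47% of all tested genes that rose and 13.4% that fell with GRP-E1F2. Among 15 further genes of young, migrating neurons, 14 were tested, of which 4 rose and 1 fell, with a median difference of 0.21. Sox4, the close relative of Sox11, rose from 5.09 ± 0.353 to 9.38 ± 1.62 TPM (limma adjusted p = 0.0104), and Dpysl3, a protein of growing axons, from 7.03 ± 1.53 to 10.3 ± 0.886 TPM (adjusted p = 0.0195). Robo2, a receptor for the guidance cue Slit, rose from 10.6 ± 1.69 to 15.9 ± 0.971 TPM (adjusted p = 0.0308), and Marcksl1 was the other that rose. Nrep fell from 2045 ± 351 to 412 ± 16.0 TPM (adjusted p = 1.25e-05). In young libraries Nrep averaged 2490 TPM, so its order over the groups was that of the cerebellar markers. The part of cerebellar tissue in its fall was not tested. The tubulin genes Tubb3 and Tubb2b and the stathmin gene Stmn1, which mature neurons also express, did not pass. With 2 libraries per group Nrep still fell and no gene of this list rose.

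Ventral forebrain factors split. Of 8 tested, 4 rose with GRP-E1F2 and 2 fell, with a median difference of 0.73. Sp8, the nearest relative of Sp9 and a factor of bulb interneurons, was 0.511, 0.0861 and 0.223 TPM in young, 0.415, 0.578 and 0.765 TPM in aged saline and 2.51, 7.57 and 5.19 TPM in treated libraries. All treated libraries were above all others. Sp8, counted among the 4, reached the filter of 1 TPM only through these treated libraries, so no p is given for it. The homeodomain cofactor Meis2 also rose, by 1.20 (SE 0.21, adjusted p = 0.00492), as did Tshz1. Pax6 fell from 18.2 ± 2.13 to 7.86 ± 1.10 TPM (adjusted p = 0.000777) and Etv1 from 44.5 ± 0.602 to 17.5 ± 2.64 TPM (adjusted p = 0.000157); both are also expressed in the cerebellum, whose markers fell. With 2 libraries per group 1 gene of this list rose, Etv1 and Pax6 fell, and Meis2 was not called (adjusted p = 0.154).

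Among relatives of the 9 genes both directions occurred. Dlx4, a member of the Dlx family outside both pairs, was 5.57, 6.37 and 5.62 TPM in young, 4.68, 6.48 and 4.70 TPM in aged saline and 1.01, 0.331 and 0.664 TPM in treated libraries. It fell by 1.92 (SE 0.16, adjusted p = 8.01e-05), also with 2 libraries per group (adjusted p = 0.0129), opposite in direction to Dlx1, Dlx2, Dlx5 and Dlx6. Dlx3, its neighbour, was at most 0.183 TPM in any library. Sox12 rose from 7.38 ± 0.291 to 8.83 ± 0.239 TPM (adjusted p = 0.0349). Of the kinases related to Dcx, Dclk1 rose (adjusted p = 0.0351) and Dclk2 and Dclk3 did not pass. In all, 4 of 7 tested relatives rose and 1 fell, a list that shares Sox4 and Sp8 with the lists above. Sp8, counted among the 4, reached the filter only through the treated libraries, and its call rests on that. With 2 libraries per group none of the 4 was called, the adjusted p being 0.566 for Sox12 and 0.452 for Dclk1.

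Gad2, a GABA-synthesising enzyme, rose from 29.0 ± 0.839 to 43.1 ± 11.1 TPM (adjusted p = 0.0475). Its sister enzyme Gad1 was 289 ± 7.95 and 360 ± 107 TPM (adjusted p = 0.305) and the vesicular transporter Slc32a1 127 ± 23.5 and 134 ± 31.3 TPM (adjusted p = 0.797). Gad2 was not called with 2 libraries per group (adjusted p = 0.437). Of 12 tested genes of interneurons of the medial and caudal eminences 1, Lhx6, rose (4.45 ± 0.469 to 8.83 ± 2.55 TPM, adjusted p = 0.0316) and 1, Maf, fell, and none was called with 2 libraries per group.

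Of 14 genes of dividing and stem cells, 9 were tested, of which 1, Hes5, rose (23.8 ± 2.96 to 38.9 ± 8.43 TPM, adjusted p = 0.0309) and 3 fell, Mcm5 (5.98 ± 0.866 to 3.00 ± 0.0593 TPM, adjusted p = 0.00238), Mcm2 and Pcna. The division markers Mki67 and Top2a were too low to be tested, at 0.0766 ± 0.0129 and 0.0709 ± 0.0519 TPM with saline and 0.111 ± 0.0179 and 0.184 ± 0.0739 TPM with GRP-E1F2. None of the 9 passed with 2 libraries per group.

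Glutamatergic newborn neuron genes, known from the dentate gyrus, fell or did not pass. Of 6 tested 3 fell with GRP-E1F2 and none rose, with a median difference of -0.74. Neurod1 fell from 84.1 ± 2.10 to 4.70 ± 0.863 TPM (adjusted p = 3.5e-07) and Prox1 from 2.42 ± 0.347 to 1.10 ± 0.223 TPM (adjusted p = 0.00768). Neurod1 is abundant in cerebellar granule cells too, whose markers fell in the same libraries, and the part of cerebellum here was not tested. Neurod1 alone held with 2 libraries per group.

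**Figure D4:**
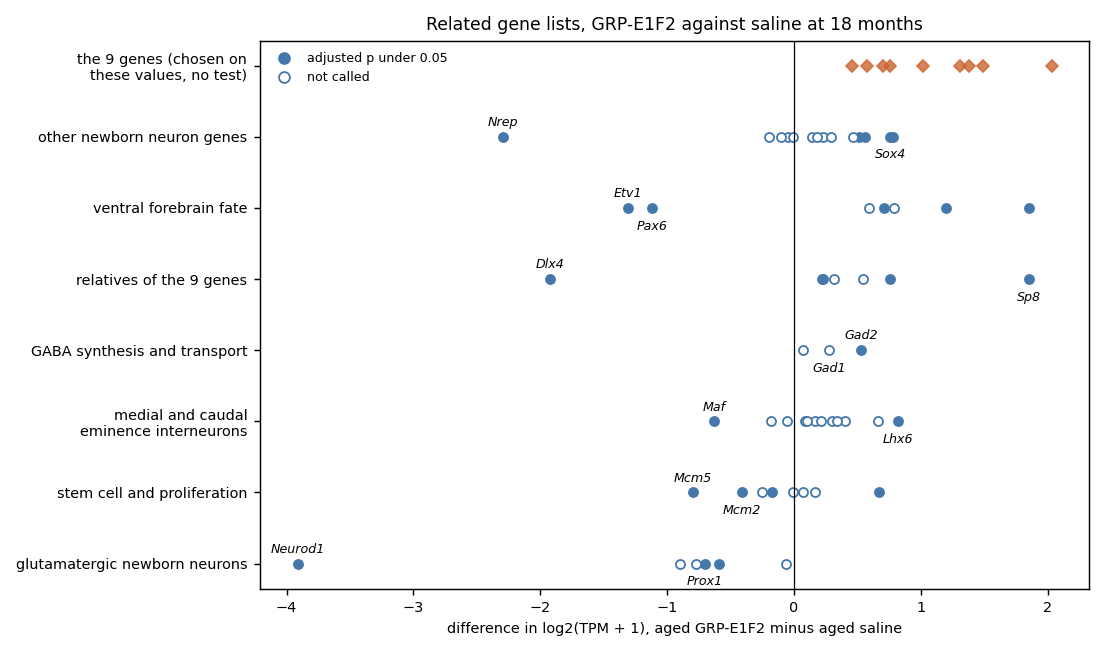
Difference in log2(TPM + 1) between aged GRP-E1F2 and aged saline (horizontal axis) of the 9 genes (diamonds) and of tested genes of 7 related lists, leaving out those not reported here; filled points had an adjusted p under 0.05. Sp8 and Sox4 lie to the right, Dlx4 at -1.92 and Neurod1 at -3.91 to the left. Sp8 is drawn filled although it reached the filter only through the treated libraries.

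With age, of the 14 tested genes of young neurons 1 rose and 2 fell, of the 8 ventral forebrain factors 1 (Meis2) rose and 2 (Etv1 and Pax6) fell, and none of Gad1, Gad2 and Slc32a1 passed. No listed gene passed with age when each group was cut to 2 libraries, a fit in which almost no gene was called with age at all.

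Within the 9 genes, levels across the 9 libraries ran closest together for Dlx1, Dlx2 and Sp9, with Pearson's r on the log2 scale of 0.992 for Dlx1 and Dlx2, 0.991 for Dlx2 and Sp9 and 0.986 for Dlx1 and Sp9. Dlx1 and Dlx5 had r = 0.907, Dlx1 and Dcx 0.930 and Dlx1 and Igfbpl1 0.780. Dlx1 and Cd24a had r = -0.0710. These values describe 9 libraries in 3 groups that also differ in regional markers, and carry no test. The genes whose pattern was most like the mean of the 9 genes over the 9 libraries were Sox4 (r = 0.992), Eef1a1 (0.990), Filip1 (0.987), Gng4 (0.987) and Sp8 (0.985). Nearest to Dlx1 were Nsg2, Col6a1 and Vstm2a, at r = 0.996, 0.996 and 0.994. Nearest to Igfbpl1 were Zwint, Tcerg1l and Mycl (0.986, 0.983 and 0.979), and nearest to Dcx were Epb41l2, Zdhhc15 and Dync2i1 (0.988, 0.983 and 0.982).

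In the annotation that the authors' deposited table carries, 6 of the 9 genes, Dlx1, Dlx2, Dlx5, Dlx6, Sox11 and Sp9, bear the term for sequence-specific transcription factor activity at RNA polymerase II genes, which 4.17% of the 19435 annotated genes bear. Dlx1, Dlx2 and Dcx share the term hippocampus development, borne by 0.345% of annotated genes. These terms describe what is recorded for the genes and not what they did in these libraries.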

How the data were processed

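RNA of 9 brain libraries was sequenced, 3 each of young saline, aged saline and aged GRP-E1F2 mice, grouped by their labels. TPM values per gene were computed by the authors and deposited as 1 table. HISAT2, Picard, SAMtools 0.1.18 and GATK with the build mm10 are named in the submitters' processing notes. For the tool and annotation behind the TPM, and for strand and multiply matching reads, the steps are not given in these sources. The NEBNext Ultra II kit was used with random primers, per the labels' protocols.

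A filter kept 13301 genes whose TPM averaged 1 or more across libraries. On log2(TPM + 1), limma 3.58.1 (R 4.3.3) was fitted to the 9 libraries together by lmFit and contrasts.fit, with a trended prior in eBayes. Tests were two-sided, with Benjamini-Hochberg adjustment over all genes tested, and an adjusted p under 0.05 is called. The 9 genes, the lists and the reduction to 2 libraries per group were chosen with earlier results of these data known. For each list up to 4 genes with the smallest p with GRP-E1F2 against aged saline are named with values, for marker lists up to 3 with the highest level, and the 5 genes most like the mean z-score of the 9 genes, or 3 most like Dlx1, Igfbpl1 and Dcx. Marcksl1, Meis2, Tshz1, Scgn, Th, Trh, Dclk1, Dclk2, Dclk3, Dlx3, Mki67, Top2a, Tubb3, Tubb2b, Stmn1, Drd1, Barhl1, S100a8, Ngp, Camp and Gpr17 fall outside this rule and were picked with their values in view. Some genes named by it are not reported here. The fit was tested on simulated data. Alternatives were other pseudocounts (0.1 or 5 TPM), a filter at 5 TPM or none, median-of-ratios scaling, quantile normalisation, a replicate block, fitting just the groups compared, 2 libraries per group, and leaving out each library. Sequences and figures used Python 3.11.15, pandas 2.3.3, numpy 2.4.6 and matplotlib 3.10.9.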

Additional observations from a re-analysis of the deposited data

How the results depend on the processing

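With 2 libraries per group the counts of called genes were 3 with age, 248 for GRP-E1F2 against aged saline and 1713 for GRP-E1F2 against young saline, from 2217, 2771 and 6204 with 3 libraries; those fits have fewer libraries, and 1431, 1792 and 4045 genes had an unadjusted p under 0.05. Leaving out 1 library gave 371 to 2635, 1345 to 3060 and 4737 to 6635. The lowest counts were 371 without young library 3, 379 without aged library 2, 635 without young library 2, 1172 without treated library 3 and 1330 without aged library 1 with age, and 1345 without aged library 2 and 1376 without treated library 3 for GRP-E1F2 against aged saline. No other setting moved a count over 1.5 times. Scaling moved the split of higher and lower calls, to 966 and 1102 with age under quantile normalisation, and to 3015 and 3074 (median of ratios) or 3115 and 2978 (quantile) for GRP-E1F2 against young saline, from 2294 and 3910. All 9 genes stayed higher with GRP-E1F2 than with aged saline in every alternative run; Dcx, Igfbpl1 and Sox11 gave no value under the filter of 5 TPM, and their differences were 0.26, 0.82 and 0.26 with a pseudocount of 5 TPM. Of the age calls, Dlx2 missed the threshold with a pseudocount of 5 TPM (adjusted p = 0.0621), and Dlx5 passed it when only the 2 groups were fitted (0.0182).

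The replicate numbers of the labels did not pair the libraries: deviations of same-numbered libraries correlated at -0.05 to 0.13. With the replicate block the counts were 2055, 2589 and 5944, and the age call of Dlx2 missed the threshold (limma adjusted p = 0.0559). TPM hold no depth, so counting error is unknown. Dcx, Mki67 and Top2a are measured near the floor, and so is Igfbpl1 in aged saline libraries.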
